A study of Mus musculus with 18 samples.

Results

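The 6 genes that encode the platelet-derived growth factors and their receptors, Pdgfa, Pdgfb, Pdgfc, Pdgfd, Pdgfra and Pdgfrb, were followed across cells sorted from the aorta-gonad-mesonephros (AGM) region of the mouse embryo, the region in which the first hematopoietic stem cells arise. They were taken by symbol from gene-level read counts of 18 RNA-seq libraries. All 6 were found among the 21881 symbols, and all 6 were among the 16231 genes that passed the filter on low counts. All embryos were of embryonic day 11 and of a C57BL6 strain that carried the BRE-GFP transgene, a reporter that turns on green fluorescent protein in cells responding to BMP. The gate enriched for hematopoietic stem cells and their progenitors (HPSC) was sorted as CD31 positive and Kit positive, mesenchyme-enriched cells (MC) as CD31 negative and Kit negative, and endothelium-enriched cells (EC) as CD31 positive and Kit negative. Each population came from explants grown with BMP, Hedgehog and cyclopamine, an inhibitor of the Hedgehog transducer Smoothened, from explants grown with BMP and Hedgehog without it, and from fresh tissue. Each was also divided into BRE-GFP positive and BRE-GFP negative cells, so that the 18 combinations of population, culture and fraction had 1 library each. Libraries are named in that order, for example HPSC explant positive, and "explant" alone means culture without cyclopamine.

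PDGF ligands are secreted dimers that activate receptor tyrosine kinases on neighbouring cells. PDGF-A and PDGF-C act mainly through the receptor PDGFR-alpha, PDGF-D through PDGFR-beta and PDGF-B through both, and PDGF-C and PDGF-D need proteolytic removal of a CUB domain before they bind. In the vessel wall of the mouse embryo, endothelial PDGF-B recruits Pdgfrb-expressing mural cells, while Pdgfra marks much of the embryonic mesenchyme.

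Libraries held between 3041249 counts in genes, in HPSC cyclopamine negative, and 21972063, in MC cyclopamine positive. No combination was repeated and the labels do not say whether libraries came from separate embryos or sorts, so p-values measure only the spread between these libraries, part of which may be technical. Levels are CPM, counts scaled to a common library size by TMM (trimmed mean of M-values). The summed level of 10 endothelial markers was 336 to 7240 CPM in HPSC, 65.8 to 221 CPM in MC and 452 to 7456 CPM in EC, and that of 10 mesenchymal markers was 203 to 958 CPM in HPSC, 2263 to 8078 CPM in MC and 1031 to 6793 CPM in EC. Neither CD31-positive gate was therefore free of mesenchymal transcripts. Of the endothelial markers, Pecam1 encodes CD31, which was part of the sort gate, so its part in the endothelial sum is no result. It averaged 1043 CPM in HPSC, 7.10 CPM in MC and 737 CPM in EC. Every marker of these 2 lists had counts in all libraries except Erg in 1 HPSC and 1 EC library, Twist2 in 2 HPSC and 1 EC library, and Twist1 and Osr1 in 1 HPSC library each. Summed levels of 8 macrophage markers were 633 to 5290 CPM in HPSC, 53.2 to 181 CPM in MC and 1010 to 7140 CPM in EC. The highest of these, 7140 CPM, was in EC fresh negative, whose endothelial markers summed to only 452 CPM. In sorted bulk samples, fewer cells of a type and less RNA per cell cannot be told apart.

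Of the ligand genes, Pdgfa is on chromosome 5 of the GRCm38 assembly (138976014 to 138997370, minus strand), Pdgfb on chromosome 15 (79995874 to 80014977, minus strand), Pdgfc on chromosome 3 (81036416 to 81214040, plus strand) and Pdgfd on chromosome 9 (6168584 to 6378850, plus strand). Pdgfra is on chromosome 5 (75152292 to 75198215, plus strand), beside Kit. Antisense genes overlap exons of Pdgfa, Pdgfc and Pdgfra, and because the strand setting of the counting is not known here, their reads cannot be told apart from those of the members. Among the members with an available start region, Pdgfc and Pdgfra are shown because these genes, a ligand and a receptor, both fell in HPSC relative to MC. Each window runs from 250 bases before to 50 bases after the RefSeq start on GRCm38.p6, on the gene's own strand (plus for both), at chr3:81036166-81036465 for Pdgfc and at chr5:75152001-75152300 for Pdgfra. Capitals mark the GC-rich Smad motif GGCGCC.
Pdgfc: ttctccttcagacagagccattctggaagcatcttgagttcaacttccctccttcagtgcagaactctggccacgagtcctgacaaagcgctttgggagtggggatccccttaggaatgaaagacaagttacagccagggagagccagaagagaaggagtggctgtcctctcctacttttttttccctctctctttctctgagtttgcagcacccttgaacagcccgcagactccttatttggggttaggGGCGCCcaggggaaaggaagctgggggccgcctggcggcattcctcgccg
Pdgfra: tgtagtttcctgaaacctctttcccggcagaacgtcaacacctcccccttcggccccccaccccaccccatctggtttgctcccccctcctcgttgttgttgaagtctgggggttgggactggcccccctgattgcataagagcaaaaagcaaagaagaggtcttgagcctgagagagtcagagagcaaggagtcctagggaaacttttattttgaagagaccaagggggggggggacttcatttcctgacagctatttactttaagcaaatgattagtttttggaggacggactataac
Because the study used a BMP reporter and a Hedgehog inhibitor, 3 motifs were searched on both strands, GGCGCC, the Smad box GTCTAGAC and the Gli motif GACCACCCA (TGGGTGGTC on the other strand), none of which contains another. No window was available here for Pdgfb or Pdgfrb, so the search did not cover them. The windows of Pdgfa, of which RefSeq gives 2 starts, and those of Pdgfc, Pdgfd and Pdgfra held a single match in all, the GGCGCC of Pdgfc. That motif stood in 11.9% of 32851 windows of the same length, GTCTAGAC in 0.213% and GACCACCCA in 0.253%. A match is a description of these letters only.

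**Figure D1:**
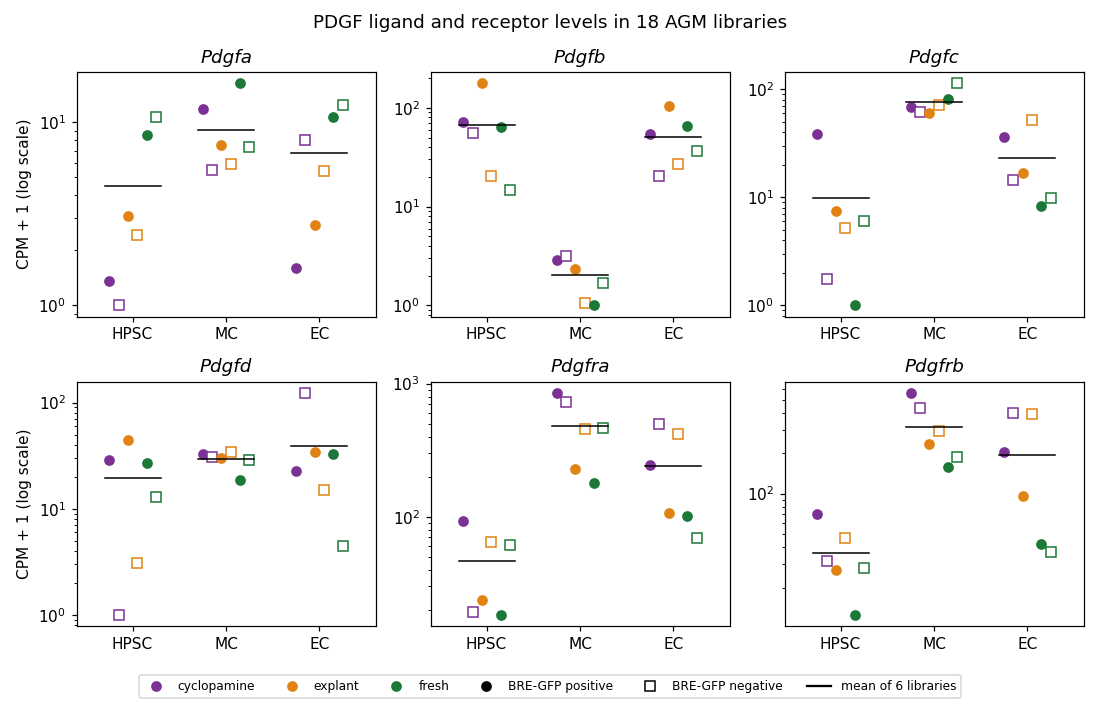
CPM + 1 on a log axis of the 6 members in each of the 18 libraries, by population, with culture shown by colour, BRE-GFP positive libraries as filled circles and negative libraries as open squares, and a line at the mean of 6 libraries. Pdgfb lies at or below 2.16 CPM in MC and at or above 13.9 CPM elsewhere, whereas Pdgfc, Pdgfra and Pdgfrb are highest in MC on average.

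Pdgfb had the largest log2 fold changes between populations of the 6 members. It was close to absent from MC, where the lowest, median and highest libraries had 0, 1.0 and 2.16 CPM, against 19.6, 44.3 and 102 CPM in EC. The MC fresh positive library had no count, which allows up to 0.599 CPM (3 counts), and MC explant negative had 1 count. Every MC library lay below every EC library, as for 2.3% of all genes. The fit gave a log2 fold change of -5.82 ± 0.79 (SE) in MC relative to EC (edgeR adjusted p = 0.000268; 6 libraries in each population). It was the only member that edgeR called in this comparison, in which 2.54% of all genes tested were called. HPSC carried Pdgfb at 13.9, 58.1 and 177 CPM (lowest, median and highest), all above the MC libraries (as for 3% of all genes), with a log2 fold change of 5.88 ± 0.79 (SE) in HPSC relative to MC (edgeR adjusted p = 0.000143). Between HPSC and EC the ranges overlapped, and the log2 difference was 0.06 ± 0.65 (SE) with an edgeR adjusted p of 0.991. Endothelial markers moved the same way, in a sum that includes the gate gene Pecam1. Per 1000 CPM of that sum, Pdgfb was 11.0 to 41.2 in HPSC (median 23.8), 0 to 29.8 in MC (median 10.2) and 8.61 to 79.5 in EC (median 25.8). These ranges overlapped, but the MC values rest on only 0 to 42 Pdgfb counts per library. The highest MC values, 26.6 and 29.8, were those with cyclopamine, and the other MC libraries had 10.3 or less. Summed levels of 8 megakaryocyte and platelet markers, a lineage known to produce PDGF-B, were also lowest in MC, at 127 to 426 CPM in HPSC, 6.94 to 37.8 CPM in MC and 804 to 3592 CPM in EC. All 8 were called lower in MC relative to EC, 5 were called higher in HPSC relative to MC and 2 lower in HPSC relative to EC. The 8 macrophage markers were all called lower in MC relative to EC and all called higher in HPSC relative to MC. None of them was called in HPSC relative to EC. Of all genes, 2.54%, 9.95% and 0.32% were called in these comparisons, in either direction. The part of any of these marker lists in the difference was not tested.

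Pdgfc, a ligand of mesenchyme and epithelium in the mouse embryo, had the reverse distribution. Its lowest, median and highest libraries had 0, 4.62 and 37.3 CPM in HPSC and 59.5, 68.8 and 114 CPM in MC. No HPSC library reached the lowest MC library, as for 4.85% of all genes, and the log2 fold change in HPSC relative to MC was -4.28 ± 0.95 (SE; edgeR adjusted p = 0.00908). EC had 7.36, 14.6 and 51.5 CPM, also below every MC library. The log2 difference of MC relative to EC was 2.27 ± 0.84 (SE), but the edgeR adjusted p was 0.234, whereas DESeq2 gave 0.0299. In this comparison 1.27% of all genes had every MC library above every EC library. HPSC relative to EC gave -2.001 ± 0.87 (SE; edgeR adjusted p = 0.475). The highest HPSC value, 37.3 CPM in HPSC cyclopamine positive, stood apart from the other 5 HPSC libraries, which had 6.54 CPM or less.

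Pdgfa and Pdgfd did not pass the test in any population comparison. Pdgfa, a ligand of PDGFR-alpha, averaged 3.52 ± 4.07 CPM in HPSC, 8.06 ± 4.24 CPM in MC and 5.82 ± 4.32 CPM in EC (SD, n = 6 libraries each). The HPSC cyclopamine negative library had no Pdgfa count, which allows up to 1.13 CPM. DESeq2 called it in HPSC relative to MC (adjusted p = 0.0399), where edgeR gave a log2 difference of -2.01 ± 1.09 (SE) and an adjusted p of 0.271. Pdgfd, the ligand of PDGFR-beta, averaged 18.6 ± 16.9 CPM in HPSC, 28.3 ± 5.61 CPM in MC and 37.9 ± 43.2 CPM in EC (SD, n = 6 each). Its spread was wide in the CD31-positive gates and narrow in MC: 0 to 43.7 CPM in HPSC and 3.50 to 123 CPM in EC, against 17.6 to 33.1 CPM in MC.

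Levels of different genes were compared per kilobase of annotated exon. On that scale the 4 ligands together reached 6.60 to 58.4 CPM per kilobase in HPSC, 23.3 to 33.2 in MC and 15.2 to 48.6 in EC. Pdgfc was the leading ligand in all 6 MC libraries, with 48.4 to 67.1% of the ligand level, followed there by Pdgfd with 21.1 to 40.7%. In the CD31-positive gates Pdgfb usually led, with a median share of 64.6% in HPSC and 49.3% in EC. The exceptions were EC cyclopamine negative, where Pdgfd made up 80.2%, EC explant negative, where Pdgfc made up 45.5%, and HPSC fresh negative, where Pdgfd stood at 33.7% and Pdgfb at 29.7%. With the longest transcript as the length, Pdgfb led in HPSC fresh negative too. The share of Pdgfb ran from 29.7 to 98.9% in HPSC and from 9.71 to 63.5% in EC, wider ranges than that of Pdgfc in MC. The 2 receptors together reached 3.82 to 21.8 CPM per kilobase in HPSC, 46.4 to 188 in MC and 13.4 to 122 in EC.

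**Figure D2:**
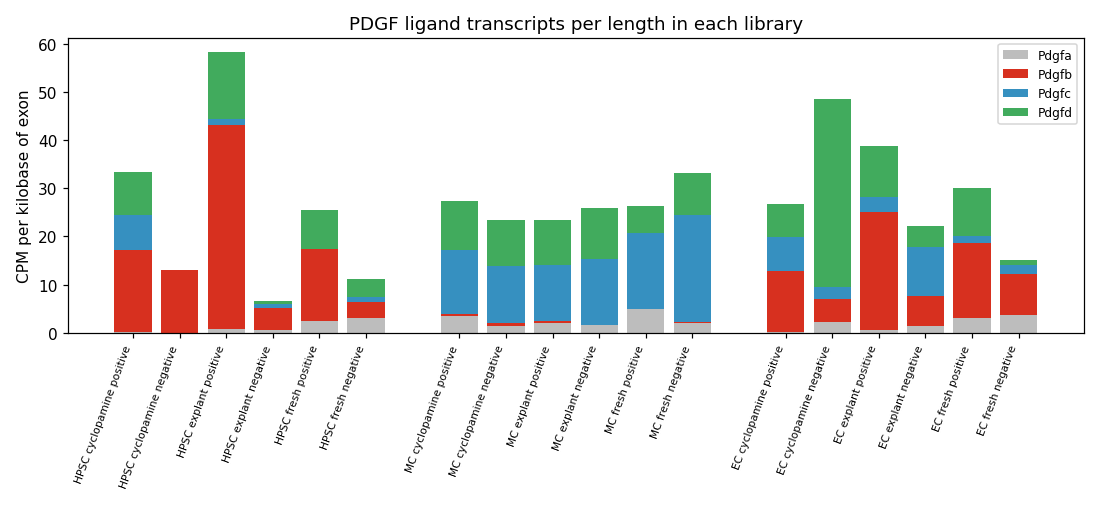
Stacked CPM per kilobase of exon for the 4 ligands in each library, grouped by population. Pdgfc and Pdgfd fill most of every MC bar, while Pdgfb is the widest band in most HPSC and EC bars, and Pdgfd makes up 80.2% of EC cyclopamine negative.

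Both receptors were lowest in HPSC on average. Pdgfra, which encodes PDGFR-alpha, had 17.2, 41.2 and 91.2 CPM in the lowest, median and highest HPSC libraries, 178, 455 and 854 CPM in MC and 68.4, 174 and 498 CPM in EC. Pdgfrb, which encodes PDGFR-beta (chromosome 18, 61045150 to 61085061, plus strand, beside Csf1r), had 11.5, 28.8 and 69.5 CPM in HPSC, 157, 263 and 563 CPM in MC and 35.8, 149 and 394 CPM in EC. No HPSC library reached the lowest MC library for either gene (nor for 4.85% of all genes), while HPSC and EC overlapped. Relative to MC, HPSC had log2 fold changes of -3.36 ± 0.42 (SE) for Pdgfra (edgeR adjusted p = 7.53e-05) and -3.18 ± 0.39 (SE) for Pdgfrb (edgeR adjusted p = 5.93e-05). With Pdgfb higher and Pdgfc lower, 4 of the 6 members were called in HPSC relative to MC, against 9.95% of all genes tested. These 4 calls held in each of the 18 fits that left out 1 library. With the share of reads outside annotated features as a covariate, Pdgfc was no longer called (edgeR adjusted p = 0.174).

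Relative to EC, the receptors in HPSC were lower in 6 of 6 matched pairs of libraries, as were 3.19% of all genes. The log2 fold changes were -2.30 ± 0.42 (SE) for Pdgfra and -2.14 ± 0.38 (SE) for Pdgfrb, each with an edgeR adjusted p of 0.0306. They were the 2 members called out of 6, in a comparison with 0.32% of all genes called and 0.283% called lower. The calls were close to the threshold: of 18 fits without 1 library, 7 kept both and 11 kept neither. They stood without any 1 of the MC fresh, MC cyclopamine or EC fresh libraries or HPSC fresh negative, and were lost without any 1 of the others. Among the 18 fits the log2 fold change ran from -2.61 to -1.98 for Pdgfra (highest adjusted p 0.101, without EC explant negative) and from -2.41 to -1.82 for Pdgfrb (highest adjusted p 0.103, without HPSC explant negative). With the covariate just named, the edgeR adjusted p was 0.126 for Pdgfra and 0.113 for Pdgfrb, and limma-voom gave 0.0562 for Pdgfra. In MC relative to EC, Pdgfra gave 1.06 ± 0.39 (SE; edgeR adjusted p = 0.239) and was higher in 6 of 6 pairs, as were 5.83% of all genes, and Pdgfrb gave 1.04 ± 0.37 (SE; edgeR adjusted p = 0.212) and was higher in 5 of 6. For Pdgfra, limma-voom gave an adjusted p of 0.00833 in that comparison.

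**Figure D3:**
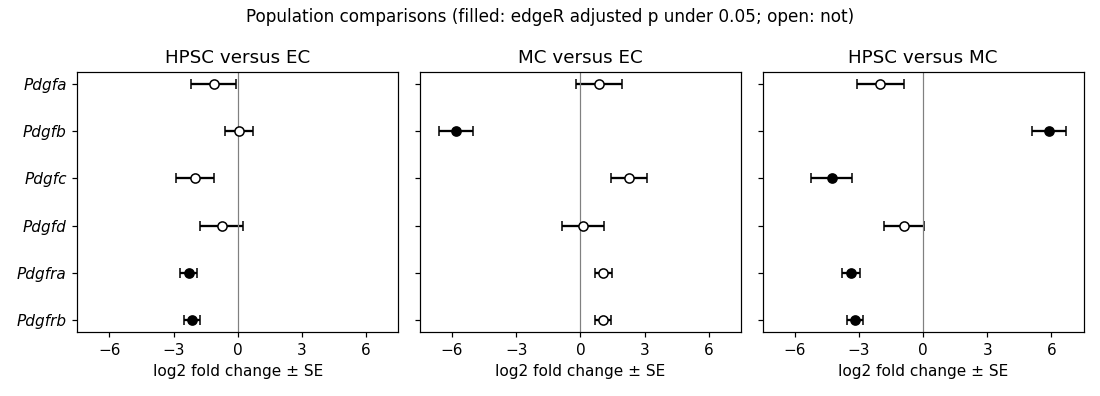
Log2 fold changes with SE of the 6 members for HPSC versus EC, MC versus EC and HPSC versus MC, with filled points where the edgeR adjusted p was under 0.05. The 4 filled points of HPSC versus MC are Pdgfb, at 5.88, and Pdgfc, Pdgfra and Pdgfrb, between -4.28 and -3.18.

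Of 10 mesenchymal markers, edgeR called 8 lower in HPSC relative to MC and 3 lower in HPSC relative to EC. It called none in MC relative to EC. Of all genes, 9.95%, 0.32% and 2.54% were called in these comparisons, in either direction. Like the receptors, the mesenchymal markers had their lowest summed level in HPSC. Per 1000 CPM of that sum, Pdgfra was 28.7 to 310 in HPSC (median 49.8), 22.0 to 203 in MC (median 128) and 23.5 to 144 in EC (median 62.9). Pdgfrb was 19.2 to 227 in HPSC (median 48.2), 19.4 to 101 in MC (median 80.8) and 21.0 to 114 in EC (median 32.3). On this relative scale the 3 populations overlapped for both receptors. Within populations (6 libraries each), the Spearman correlation of Pdgfra with the mesenchymal sum was 0.257 in HPSC, -0.257 in MC and 0.486 in EC. For Pdgfrb it was -0.0857 in HPSC, -0.0286 in MC and 0.486 in EC. Other lists gave larger coefficients in single populations. With the macrophage sum, both receptors gave 0.943 in HPSC and -0.0857 in EC, and in MC Pdgfra gave -0.2 and Pdgfrb -0.6. The mesenchymal sum was higher in the BRE-GFP positive fraction in 2 of 3 HPSC pairs, 3 of 3 MC pairs and 3 of 3 EC pairs. Each receptor was higher in that fraction in 1 of 3 pairs of each population. Summed levels of 10 markers of mural cells, the cells of the vessel wall that use Pdgfrb, were 164 to 416 CPM in HPSC, 859 to 3302 CPM in MC and 189 to 882 CPM in EC. Of the 10, 4 were called lower in HPSC relative to MC (Acta2, Cnn1, Cspg4 and Notch3), against 9.95% of all genes called in either direction. Markers of other cells also set MC apart. Of 6 sympathoadrenal neural markers, 6 were called lower in HPSC relative to MC and 4 higher in MC relative to EC. What share of the receptor differences follows the content of mesenchymal, mural or other transcripts was not tested. The 2 receptors themselves kept close to each other. The ratio of Pdgfra to Pdgfrb per kilobase was 0.324 to 1.21 in HPSC (median 0.733), 0.535 to 1.34 in MC (median 0.837) and 0.581 to 1.34 in EC (median 0.672). With the longest transcript as the length it was 0.470 to 1.75 in HPSC (median 1.06), 0.777 to 1.95 in MC (median 1.22) and 0.843 to 1.95 in EC (median 0.975). Which receptor was higher thus depended on the length used. Their Spearman correlation of log2 CPM over the 18 libraries was 0.959.

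BMP-responding cells were compared with non-responding ones through the BRE-GFP fractions. None of the 6 members was called by edgeR, DESeq2 or limma-voom over all 9 pairs, and 1, Pdgfb, had an unadjusted edgeR p under 0.05. Of all genes, edgeR called 0.0554%, and 5.3% had such an unadjusted p. Pdgfb was nevertheless higher in the positive fraction in 6 of 6 pairs of HPSC and EC, as were 3.78% of all genes. In HPSC, Pdgfb stood at 71.3 CPM in the positive and 53.9 CPM in the negative fraction with cyclopamine, at 177 and 19.4 CPM in explants and at 62.3 and 13.9 CPM in fresh tissue. In EC, the positive and negative fractions had 52.7 and 19.6 CPM with cyclopamine, 102 and 25.9 CPM in explants and 64.2 and 35.9 CPM in fresh tissue. Within each of these 2 populations, the 3 positive libraries lay above the 3 negative ones, as for 7.65% of all genes in HPSC and 7.2% in EC. No member was called by edgeR within EC, where 0.0123% of all genes were. Over all 9 pairs the log2 difference was 1.33 ± 0.61 (SE; unadjusted p = 0.0462, edgeR adjusted p = 0.931). Averaged over HPSC and EC alone, an estimate added after the values had been seen, it was 1.68 ± 0.73 (SE; edgeR adjusted p = 0.502, with 0.228% of all genes called). Within HPSC alone it was 1.94 ± 1.07 (SE; edgeR adjusted p = 0.706), 1.29 without either library of the explant pair and 2.68 or 2.69 without either of the cyclopamine pair. In MC, all 6 libraries lay at or under 2.16 CPM and neither fraction was consistently higher.

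The summed endothelial markers were also higher in the positive fraction in 6 of 6 pairs of HPSC and EC. None of the 10 was called by edgeR over all 9 pairs, where 0.0554% of all genes were. Their summed level in HPSC was 3089 CPM in the positive and 1496 CPM in the negative fraction with cyclopamine, 7240 and 921 CPM in explants and 5645 and 336 CPM in fresh tissue. In EC it was 1525 and 1210 CPM with cyclopamine, 4429 and 907 CPM in explants and 7456 and 452 CPM in fresh tissue. Per 1000 CPM of these markers, Pdgfb was higher in the positive fraction in only 2 of the 6 pairs, HPSC explant and EC cyclopamine. In fresh tissue it was 11.0 in the positive and 41.2 in the negative fraction of HPSC, and 8.61 and 79.5 in EC. The summed megakaryocyte and platelet markers were higher in the positive fraction in 3 of the 6 pairs. Sums of mesenchymal, mural and sympathoadrenal neural markers were higher there in 5 of the 6 pairs each. Those of macrophage, hematopoietic progenitor and erythroid markers were higher in 1 of the 6 each. The part of endothelial or other content in the Pdgfb difference was not tested.

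Pdgfd was higher in the positive fraction in 6 of 9 pairs, and over all 9 the log2 difference was 1.23 ± 0.91 (SE; edgeR adjusted p = 1). In HPSC it stood at 28.1 CPM in the positive fraction and at 0 in the negative one with cyclopamine, at 43.7 and 2.07 CPM in explants and at 25.7 and 11.9 CPM in fresh tissue. All 3 positive HPSC libraries lay above the 3 negative ones, as for the 7.65% of all genes given above. The log2 difference was 4.05 ± 1.53 (SE), which edgeR did not call (adjusted p = 0.559; 0.037% of all genes called) and DESeq2 did (adjusted p = 0.00592). The edgeR value was 2.73 or 2.74 without either library of the cyclopamine pair, and 5.71 or 5.72 without either of the fresh pair. The negative library with cyclopamine was the shallowest of the series and its lack of counts allows up to 1.13 CPM. In EC the direction was mixed, with 21.8 and 123 CPM in the positive and negative fractions with cyclopamine, 33.01 and 14.0 CPM in explants and 31.9 and 3.50 CPM in fresh tissue. In MC, Pdgfd was 32.1 and 30.0 CPM with cyclopamine, 29.4 and 33.1 CPM in explants and 17.6 and 27.6 CPM in fresh tissue. The test of whether the fraction effect differed between populations did not call Pdgfd (unadjusted p = 0.114, edgeR adjusted p = 1), nor any other member, and edgeR called 0% of all genes in it. Averaged over HPSC and EC, Pdgfd gave 2.43 ± 1.07 (SE; edgeR adjusted p = 0.507).

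**Figure D4:**
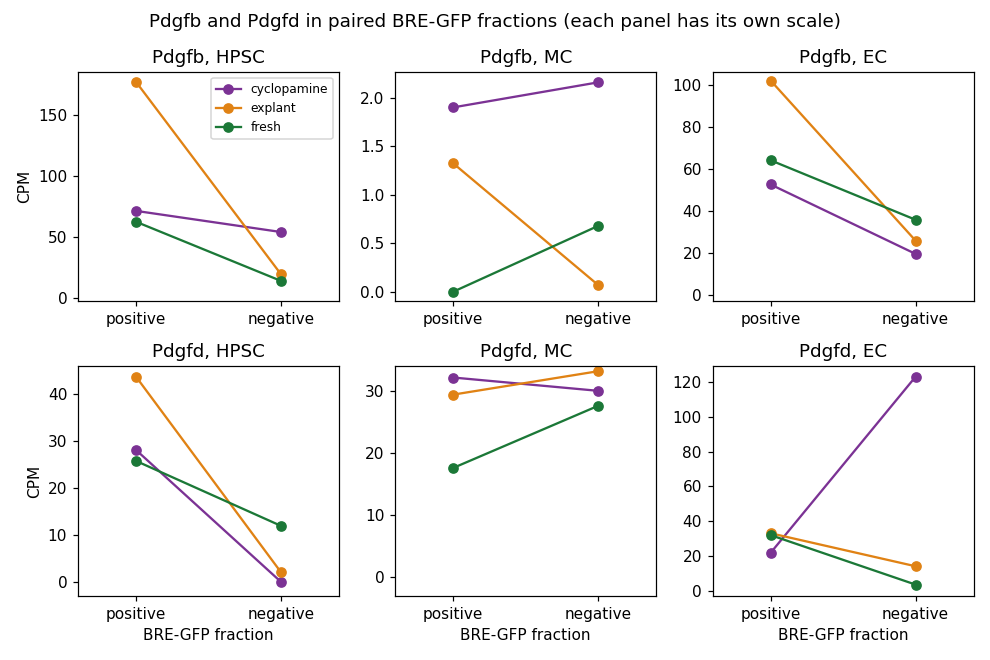
CPM of Pdgfb (top) and Pdgfd (bottom) in BRE-GFP positive and negative libraries, joined by culture, for each population. All 6 HPSC and EC lines of Pdgfb and all 3 HPSC lines of Pdgfd are higher at the positive end, and Pdgfb in MC stays at or below 2.16 CPM.

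The remaining members showed no shared direction between the fractions. Pdgfa was higher in the positive fraction in 3 of 3 MC pairs and lower in 3 of 3 EC pairs. In MC the positive and negative fractions had 10.8 and 4.49 CPM with cyclopamine, 6.47 and 4.90 CPM in explants and 15.4 and 6.29 CPM in fresh tissue, so that the MC fractions did not overlap, as for 2.67% of all genes. In EC they had 0.602 and 7.02 CPM with cyclopamine, 1.75 and 4.44 CPM in explants and 9.75 and 11.4 CPM in fresh tissue. As 11.2% of all genes were higher in each MC pair and 8.3% lower in each EC pair, and the test of the difference between populations gave an unadjusted p of 0.416 (edgeR adjusted p = 1), these opposite directions were not separated from the spread. Pdgfc was higher in the positive fraction in 4 of 9 pairs, and Pdgfra and Pdgfrb in 3 of 9 each. Over all 9 pairs, Pdgfra gave a log2 difference of -0.70 ± 0.40 (SE) and Pdgfrb one of -0.43 ± 0.30 (SE), both with an edgeR adjusted p of 1.

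Explants were compared with fresh tissue. As the explants were grown with BMP and Hedgehog, culture and these added factors cannot be told apart here. Of the 6 members, edgeR called none, with 0.136% of all genes called. DESeq2 and limma-voom called none either, and 1 member, Pdgfrb, had an unadjusted edgeR p under 0.05, as had 8.58% of all genes. Pdgfrb was higher in explants in 6 of 6 pairs, as were 5.72% of all genes. In HPSC it had 26.2 CPM in the positive and 46.0 CPM in the negative explant library, against 11.5 and 27.1 CPM in the fresh ones. The positive and negative libraries had 233 and 292 CPM in MC explants, against 157 and 187 CPM in fresh MC, and 94.5 and 390 CPM in EC explants, against 40.9 and 35.8 CPM in fresh EC. The EC step was the widest: both EC explant libraries lay above both fresh ones, as for 16% of all genes, with a log2 difference of 2.32 ± 0.68 (SE; unadjusted p = 0.00436, edgeR adjusted p = 1, and 0.00616% of all genes called). Over all populations the log2 difference was 1.22 ± 0.38 (SE; unadjusted p = 0.00501, edgeR adjusted p = 0.282). The EC step was 1.43 without EC explant negative and 1.51 without EC fresh negative, and 3.13 without EC explant positive and 3.20 without EC fresh positive. The difference of the explant effect between populations was not called for Pdgfrb (unadjusted p = 0.177, edgeR adjusted p = 1). Summed mesenchymal markers in EC were 4505 and 3638 CPM in the positive and negative explant libraries, against 1691 and 1031 CPM in the fresh ones. In HPSC they were 608 and 203 CPM in explants, against 600 and 958 CPM in fresh tissue. In MC they were 6205 and 3695 CPM, against 8078 and 2263 CPM. This sum was thus lower in explants for HPSC negative and MC positive, where Pdgfrb was higher. The part of these markers in the receptor values was not tested.

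Pdgfra gave 0.50 ± 0.45 (SE; edgeR adjusted p = 0.857) in explants relative to fresh tissue and was higher in 5 of 6 pairs. Pdgfa had the opposite direction and was lower in explants in 6 of 6 pairs, as were 3.02% of all genes. It averaged 3.51 ± 2.05 CPM in explants and 10.004 ± 3.19 CPM in fresh tissue (SD, n = 6 each). The log2 difference was -1.90 ± 0.96 (SE; edgeR adjusted p = 0.627), which did not pass the test. Pdgfb, Pdgfc and Pdgfd were higher in explants in 4, 3 and 5 of the 6 pairs.

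Cyclopamine was added to block Hedgehog signalling in the explants. Neither edgeR nor DESeq2 nor limma-voom called a member, no member had an unadjusted edgeR p under 0.05, and edgeR called 0% of all genes, of which 8.13% had such an unadjusted p. Pdgfra and Pdgfrb were each higher with cyclopamine in 5 of 6 pairs, the exception being the negative HPSC libraries. In MC, Pdgfra stood at 854 and 727 CPM in the positive and negative cyclopamine libraries, against 229 and 452 CPM in explants without it. Pdgfrb stood at 563 and 434 CPM, against 233 and 292 CPM. For both receptors the MC cyclopamine libraries lay above the MC explants, as did 25.1% of all genes, and the log2 differences within MC were 1.36 ± 0.83 (SE) for Pdgfra and 0.93 ± 0.63 (SE) for Pdgfrb, both with an edgeR adjusted p of 1. Without MC cyclopamine positive both were 0.59, and without MC cyclopamine negative they were 2.06 for Pdgfra and 1.32 for Pdgfrb. In the positive and negative EC libraries, Pdgfra had 242 and 498 CPM with cyclopamine, against 106 and 414 CPM without, and Pdgfrb had 203 and 394 CPM, against 94.5 and 390 CPM. Over all populations the log2 difference was 0.91 ± 0.46 (SE; edgeR adjusted p = 0.661) for Pdgfra and 0.66 ± 0.37 (SE; edgeR adjusted p = 0.743) for Pdgfrb. The share of uniquely placed reads outside annotated features was 19.5 to 33.01% in cyclopamine libraries and 35.0 to 49.4% in explants, ranges that did not overlap, and with that share as a covariate the log2 differences were -1.14 for Pdgfra and -1.10 for Pdgfrb. The direction of the receptors under cyclopamine therefore cannot be told apart from this shift between the libraries. Pdgfb, Pdgfc and Pdgfd were higher with cyclopamine in 3, 3 and 2 of the 6 pairs, and Pdgfa in 2.

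**Figure D5:**
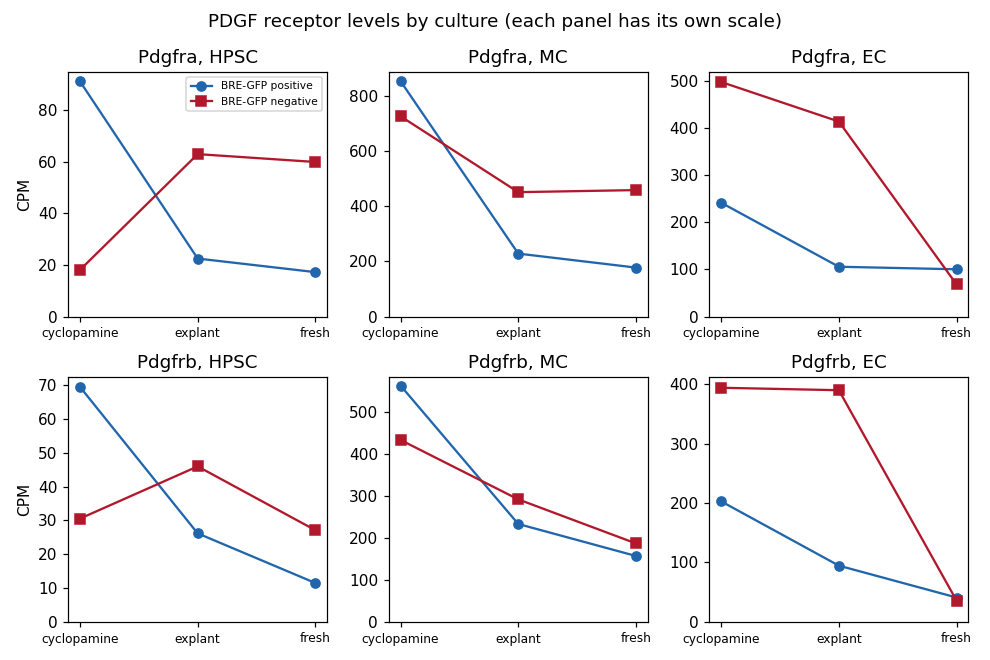
CPM of Pdgfra (top) and Pdgfrb (bottom) in cyclopamine explants, explants and fresh tissue, by population, with a line for each BRE-GFP fraction. Pdgfrb is higher in explants than in fresh tissue on all 6 lines, and both receptors reach their highest values in MC with cyclopamine, 854 CPM for Pdgfra and 563 CPM for Pdgfrb.

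Genes with the most similar pattern were ranked by Spearman correlation of log2 CPM over the 18 libraries, among 9424 or 9425 genes with a mean of at least 10 CPM. The libraries share populations, cultures and depth, so that these coefficients describe likeness only. For Pdgfrb the first gene was Pdgfra (0.959), followed by Sulf1, a heparan sulfatase (0.944), Axl, a receptor tyrosine kinase (0.938), Tcf21, a transcription factor of mesenchyme (0.936), and Dkk3, a secreted protein (0.930). For Pdgfra the order was Sulf1 (0.977), Pdgfrb (0.959), Clip3 (0.955), Abat (0.953) and Nfatc4 (0.940). Pdgfb was most like S1pr1, a sphingosine-1-phosphate receptor of endothelium (0.973), Gja4, an endothelial connexin (0.953), Notch4 (0.950), F11r (0.950) and Icam2, an endothelial adhesion molecule (0.948). Pdgfc was most like AW551984 (0.957), Rbm4b (0.924), Crabp2 (0.915), Tshz1 (0.911) and Palld (0.905). Pdgfd and Pdgfa had no neighbour as close, with Rftn2 first for Pdgfd (0.876, then Lmf1, Dync1i2, Gria2 and Taf9b down to 0.847) and Ccdc34 first for Pdgfa (0.804, then Lrrcc1, Ska1, Rprd2 and Fam119a down to 0.742). Among the members, Pdgfb ran against Pdgfc (-0.66), Pdgfra (-0.57) and Pdgfrb (-0.55), and Pdgfc ran with Pdgfra (0.812) and Pdgfrb (0.752).

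Of 7 proteases that process PDGF ligands, 1 was higher and 1 lower in HPSC relative to MC, and 1 lower in MC relative to EC, where edgeR called 9.95% and 2.54% of all genes. Plau, the urokinase that can activate PDGF-D, averaged 61.5 ± 47.8 CPM in HPSC, 1.65 ± 0.318 CPM in MC and 30.2 ± 12.1 CPM in EC (SD, n = 6 each). Its log2 fold change was 4.90 ± 0.72 (SE) in HPSC relative to MC (edgeR adjusted p = 0.000334) and -4.14 ± 0.68 (SE) in MC relative to EC (edgeR adjusted p = 0.00149). Pcsk5, a proprotein convertase, was lower in HPSC than in MC at 10.2 ± 15.2 against 37.2 ± 5.65 CPM (edgeR adjusted p = 0.0398). Of 7 ligand-binding proteins and coreceptors, Itgb3, the integrin beta-3 chain, averaged 83.9 ± 65.8 CPM in HPSC, 11.4 ± 3.32 CPM in MC and 208 ± 141 CPM in EC, and passed in HPSC relative to MC (edgeR adjusted p = 0.0341) and in MC relative to EC (edgeR adjusted p = 0.0027). Cspg4, the NG2 proteoglycan of pericytes that binds PDGF-A, was lower in HPSC than in MC at 9.01 ± 6.53 against 82.4 ± 29.8 CPM (edgeR adjusted p = 0.00796).

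None of 19 receptor signalling genes, among them the adaptors and kinases Grb2, Shc1 and Pik3ca, and none of 10 negative regulators passed edgeR in any of the 6 comparisons over populations, fractions or cultures. Of all genes, 9.95% were called in HPSC relative to MC, 2.54% in MC relative to EC and 0 to 0.32% in the other 4. Their median log2 difference in HPSC relative to MC was 0.19 for the signalling genes and -0.25 for the regulators, against -0.38 for all genes tested. Of 7 related class III receptors and their ligands, 3 were higher in HPSC than in MC and 1 was lower, against 9.95% of all genes called. Kit, 1 of the 3, was part of the sort gate and is no result. Csf1r, the CSF1 receptor beside Pdgfrb, averaged 403 ± 332 CPM in HPSC, 19.8 ± 13.8 CPM in MC and 418 ± 422 CPM in EC, and passed in HPSC relative to MC (log2 fold change 4.24 ± 0.60 (SE), edgeR adjusted p = 0.000247) and in MC relative to EC (-4.27 ± 0.59 (SE), edgeR adjusted p = 0.000306), while its neighbour Pdgfrb was highest in MC. Flt3, a receptor of blood progenitors, averaged 74.1 ± 51.0 CPM in HPSC and 0.827 ± 0.616 CPM in MC (edgeR adjusted p = 0.00412), and the CSF1R ligand Il34 0.167 ± 0.409 and 1.48 ± 0.911 CPM (edgeR adjusted p = 0.0336). No gene of these 5 lists was called between BRE-GFP fractions, between explant and fresh or between cyclopamine and explant libraries.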

How the data were processed

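RNA was extracted with mirVana and amplified with the SMARTER protocol, per the labels' protocols. The authors deposited 1 table of raw read counts per gene symbol and library. Named in the submitters' processing notes, without versions, are TopHat, Cufflinks and HTSeq and the mm10 build. Gene annotation and strandedness: not given in the sources used here. Lines that name no gene were left out, among them reads outside annotated features (19.5 to 49.4% of those placed once). Counts were tested with edgeR 4.0.16 (quasi-likelihood test after TMM scaling) over the 16231 genes that reached 0.796 CPM, or 10 counts in a library of median size, in 3 libraries, in R 4.3.3. Adjusted p-values are Benjamini-Hochberg, with a threshold of 0.05. Each SE beside an edgeR log2 difference was back-calculated, as its absolute value divided by the square root of the F statistic. Populations were compared within 6 blocks of equal culture and fraction, fractions within 9 pairs, cultures within 6 blocks, with 10, 8 and 10 residual degrees of freedom. Effects within 1 population and their differences came from models with 6. Common biological coefficients of variation lay between 0.884 and 0.922. A floor of 3 counts is given for 0 counts and covers counting error only. GENCODE M21 (GRCm38, which is mm10) gave gene lengths and coordinates. Promoters are from RefSeq (GRCm38.p6), which matched 4 members. Alternatives were RLE scaling, library totals, no filter, DESeq2 1.42.0, limma-voom 3.58.1, the no-feature share as covariate and leaving out each library; scripts were tested on simulated data. The members, gene lists and tests were chosen with earlier results of these data known. All 6 members are described; of the pathway lists, genes with an adjusted p under 0.05 are named, up to 6 each way per comparison, and for each member the 5 genes of highest Spearman correlation, predicted genes and small RNAs left out.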

Additional observations from a re-analysis of the deposited data

Results flagged for a closer look

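4 values stood apart from the other 5 libraries of their population by Dixon's criterion, applied to CPM in 18 groups of 6 libraries. The criterion's rate of about 1 in 20 holds for repeats of 1 normal distribution. It does not apply here, because the libraries of a group differed in culture and BRE-GFP fraction. The number of such values is therefore no measure of an excess. Pdgfb had 177 CPM in HPSC explant positive, and the next HPSC library had 71.3 CPM. Pdgfc had 37.3 CPM in HPSC cyclopamine positive, and the next had 6.54 CPM. Pdgfd had 123 CPM in EC cyclopamine negative, and the next EC library had 33.01 CPM. Pdgfd had 17.6 CPM in MC fresh positive, below the 27.6 to 33.1 CPM of the other MC libraries. Without EC cyclopamine negative, the log2 difference of Pdgfd in HPSC relative to EC was -0.22 (edgeR adjusted p = 0.981), against -0.76 with it.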

How the results depend on the processing

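RLE scaling and library totals changed no call and no direction of a member, and moved the median log2 difference of all genes by under 0.1. The number of members called in HPSC relative to EC was 2, and 1 with limma-voom, 0 with the no-feature share as covariate and 0 to 2 without 1 library. In MC relative to EC it was 1, and 2 with DESeq2 and 2 with limma-voom. Within HPSC, DESeq2 called 1 between BRE-GFP fractions, Pdgfd. With the no-feature covariate Pdgfc in HPSC relative to MC had an edgeR adjusted p of 0.174. Genes called by DESeq2 and limma-voom against edgeR were 795 and 228 against 52 in HPSC relative to EC, 1236 and 781 against 413 in MC relative to EC, 3593 and 2872 against 1615 in HPSC relative to MC, 365 and 73 against 9 between fractions, 464 and 165 against 22 for explants and 172 and 31 against 0 for cyclopamine. Only log2 differences that were not called changed sign. With the no-feature covariate these were Pdgfd in MC relative to EC (-0.11), Pdgfa (-0.22) and Pdgfc (0.31) between fractions, Pdgfb (-0.19) and Pdgfd (1.23) for explants, Pdgfa (0.23), Pdgfc (-3.31), Pdgfd (-2.01), Pdgfra (-1.14) and Pdgfrb (-1.10) for cyclopamine, Pdgfra (-0.78) and Pdgfrb (-0.48) for cyclopamine within MC and Pdgfd between fractions within MC (0.0014). With limma-voom they were Pdgfd for explants (0.40), Pdgfb (-0.71), Pdgfc (-0.017) and Pdgfd (-0.17) for cyclopamine and Pdgfd between fractions within EC (-0.47). Averaged over HPSC and EC, Pdgfa (-0.51) and Pdgfc (0.15) changed sign between fractions. Without 1 library, ranges that crossed 0 were -0.20 to 0.34 (Pdgfb, HPSC relative to EC), -0.45 to 1.10 (Pdgfd, MC relative to EC), -0.14 to 0.40 (Pdgfa) and -0.47 to 0.35 (Pdgfc) between fractions, -0.047 to 0.94 (Pdgfc) and -0.51 to 0.71 (Pdgfd) for explants, -0.76 to 0.80 (Pdgfc) and -0.54 to 0.73 (Pdgfd) for cyclopamine, and between fractions -1.30 to 1.52 for Pdgfb within MC and -0.64 to 2.20 for Pdgfd within EC. The cause of these changes was not tested. Ranked by Pearson's r, 1 to 3 of the 5 most similar genes of each member stayed the same. Replicate numbers, 1 in every combination, pair no libraries, so the pairs and blocks of the fits were made by matched population, culture or fraction.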
